A study of Mus musculus with 8 samples.

Results

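Cadherins are adhesion molecules that hold neighbouring cells together in the presence of calcium. The 10 cadherin genes described here, of 22180 genes measured, are Cdh1, Cdh2, Cdh3, Cdh4, Cdh6, Cdh9, Cdh11, Cdh13, Cdh16 and Cdh17. They were chosen by family and by their known place in kidney epithelium, nephron and mesenchyme, with the difference of Cdh9 between these same arrays already known. Their values in the comparison are therefore a description, given with standard errors and no p-value. All 10 were measured, and none was removed by a filter.

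RNA of whole kidneys from 8 mouse embryos of a single litter at E14.5 (E, embryonic day) was hybridised to 1-colour expression arrays. Of these embryos, 4 are labelled Grb2 UB-cKO, a conditional knockout of Grb2 in the ureteric bud (Grb2_cKO), and 4 are labelled wild-type control. No source used here gives the Cre line or the Grb2 allele. By the label the bud is the targeted part, and deletion in cells outside it was not examined. Values are log2 probe-set levels deposited by the authors, so a difference of 1 is a doubling, and a difference is given as Grb2_cKO minus control. Levels of different genes come from different probes and are not compared with each other.

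The cytoplasmic tail of a classical cadherin binds beta-catenin and p120-catenin, and alpha-catenin links the complex to actin. Epithelial tubes of the kidney rely on E-cadherin, encoded by Cdh1, while nephron precursors and mesenchyme use other members, and the set changes as mesenchyme turns into tubules. By structure Cdh1, Cdh2, Cdh3 and Cdh4 encode type I classical cadherins, and Cdh6, Cdh9 and Cdh11 encode type II classical cadherins. The other 3 lie outside the strict definition. Cdh13 encodes T-cadherin, which is tethered by a lipid anchor and has no tail, and Cdh16 and Cdh17 encode cadherins with a longer outer part and a short tail.

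A gene is called where its adjusted p is below 0.05 in limma over all 22180 genes. By that threshold 28.1% of all genes were called, 13.7% higher and 14.3% lower in Grb2_cKO. Of the 10 cadherins, 5 were called. Cdh2, Cdh9 and Cdh13 were higher, and Cdh3 and Cdh4 were lower. For the same 5 genes no Grb2_cKO value fell inside the control range or the reverse, against 31.2% of all genes. The median difference of the 10 was 0.05, beside 0.01 over all genes. Nothing is read from these counts, or from the call of any of the 10 under any setting, since the genes were chosen with this comparison in view.

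The embryos differed in sex-linked genes as well as in genotype. Averaged over Eif2s3y, Kdm5d and Uty, all on the Y chromosome, the level was between 9.94 and 10.1 in control replicate 3 and every Grb2_cKO embryo, and between 4.09 and 4.24 in the other 3 controls. Xist was between 12.2 and 12.8 in those 3 controls, 5.39 in control replicate 3 and between 4.95 and 6.03 in Grb2_cKO. When this Y-linked mean entered the model as covariate, 5.62% of all genes were called, and 2 of the 10 cadherins, Cdh9 and Cdh4. Grb2 itself, the targeted adaptor gene, read between 8.61 and 8.68 in controls and between 8.06 and 8.36 in Grb2_cKO, a difference of -0.45 (SE 0.07, adjusted p = 0.0017) that came to -0.40 with the covariate (adjusted p = 0.10).

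**Figure D1:**
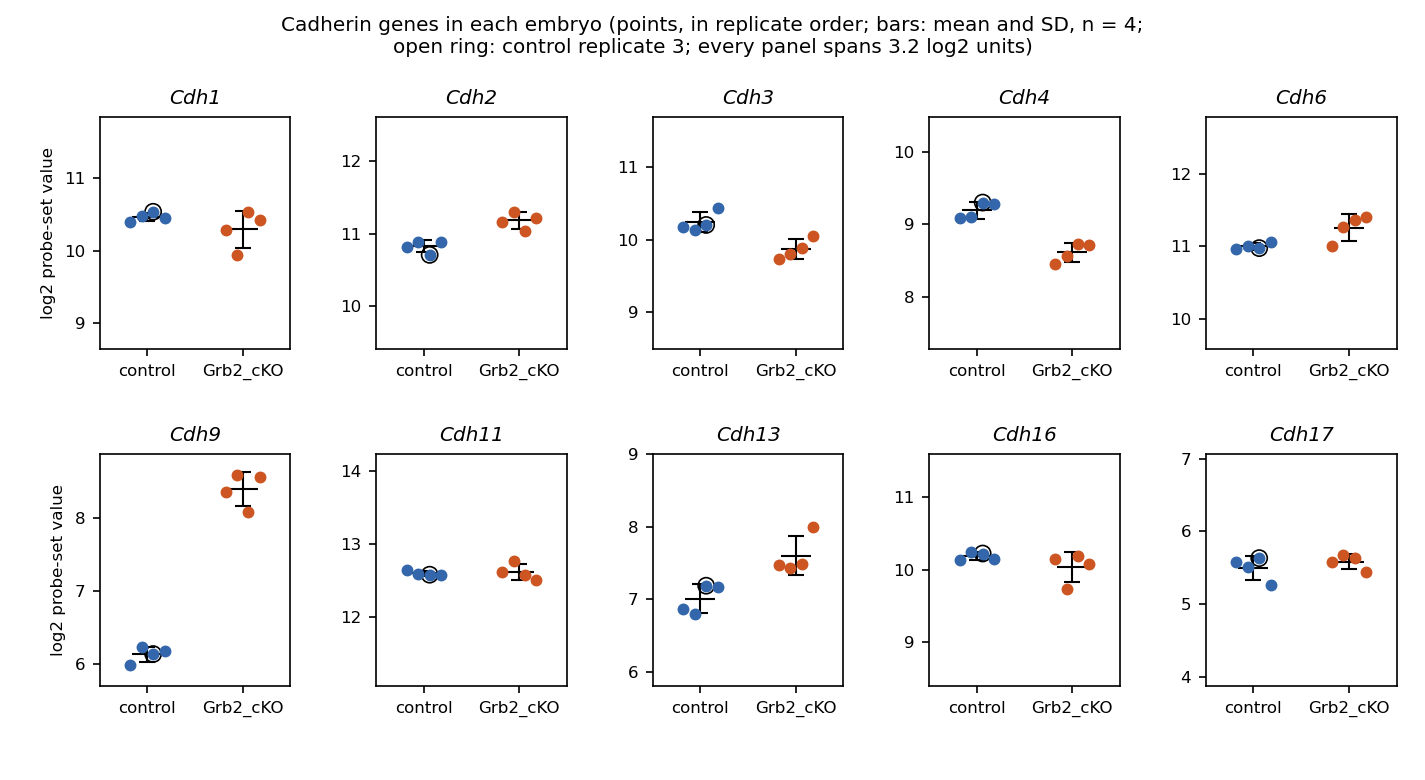
Log2 level of each of the 10 cadherin genes in each embryo, with 4 control and 4 Grb2_cKO embryos per gene, each point an embryo, the black bars mean ± SD and the ring control replicate 3. The 4 Grb2_cKO values of Cdh9 lie between 8.09 and 8.59, above the highest control at 6.22, while the groups of Cdh1, Cdh6, Cdh11, Cdh16 and Cdh17 overlap.

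Cdh9 encodes a type II cadherin known from subsets of neurons and from kidney. Cdh9 read 5.98, 6.22, 6.13 and 6.18 in control replicates 1 to 4 and 8.36, 8.59, 8.09 and 8.58 in Grb2_cKO replicates 1 to 4. Every Grb2_cKO embryo was above every control, and the gap between the groups was 1.86. Every control value was below the lowest median of an array, 6.61. No detection calls were used, so the control level cannot be told from background. The mean was 6.13 ± 0.11 in controls and 8.41 ± 0.24 in Grb2_cKO (SD, n = 4 each), a difference of 2.28 (SE 0.12, 95% interval 2.02 to 2.535), or 4.85-fold. Among all genes, the Y-linked ones included, this was the 8th largest positive difference, and it was known when the genes were chosen. The difference of Cdh9 was 2.26 (SE 0.20) with the Y-linked mean as covariate and 2.27 (SE 0.21) against control replicate 3 alone, and between 2.21 and 2.38 with any 1 embryo left out. For control replicate 3 alone, the single control is assumed to vary like the Grb2_cKO embryos. The Y-linked mean was high in that control and every Grb2_cKO embryo and low in the other controls. For any gene, the values with the covariate and against control replicate 3 are therefore near each other by design. They are not separate checks.

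Cdh9 lies beside Cdh6 on chromosome 15, and the stretches of 250 bases before their annotated starts are shown because the pair shares a run of letters there. Read in the direction of each gene, among the 10 pairs of the 5 type II genes of this region (Cdh6, Cdh9, Cdh10, Cdh12 and Cdh18), Cdh6 and Cdh9 had the longest shared run, 15 bases, and the next longest was 13 bases, between Cdh9 and Cdh18. Sequences are from RefSeq on GRCm38.p6, whose promoter table held 2 of the 10 cadherins, and are written in the direction of the gene with the shared run in capitals. The Cdh6 stretch is chr15:13173676-13173925 on the minus strand, and the Cdh9 stretch is chr15:16728665-16728914 on the plus strand.
Cdh6: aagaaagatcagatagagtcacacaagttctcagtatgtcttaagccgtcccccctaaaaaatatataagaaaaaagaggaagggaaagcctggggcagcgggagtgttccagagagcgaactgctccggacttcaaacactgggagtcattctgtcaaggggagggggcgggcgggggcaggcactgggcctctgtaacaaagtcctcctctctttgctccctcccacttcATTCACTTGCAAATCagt
Cdh9: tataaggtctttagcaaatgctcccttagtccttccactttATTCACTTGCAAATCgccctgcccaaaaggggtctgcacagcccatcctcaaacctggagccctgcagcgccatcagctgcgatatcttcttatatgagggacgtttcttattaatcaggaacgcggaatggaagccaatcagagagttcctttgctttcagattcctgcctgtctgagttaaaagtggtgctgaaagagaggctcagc
The run ATTCACTTGCAAATC ends 4 bases before the start of Cdh6 and 195 bases before that of Cdh9. Searched on both strands, it was in 2 of 32851 windows of this length from 27025 genes, these 2. It was found by comparing these promoters and was not tested against expression. The E-box CANNTG, a palindrome, occurred 1 time in the Cdh6 window and 3 times in the Cdh9 window, and 66.2% of all windows hold it. The letters CACCTG, one form of that E-box, were in neither window on either strand, beside 17.2% of all windows.

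Cdh6 encodes K-cadherin, a type II cadherin of early nephron epithelium and the forming proximal tubule. Cdh6 read 10.96, 11.00, 10.97 and 11.06 in control replicates 1 to 4 and 11.00, 11.27, 11.36 and 11.40 in Grb2_cKO replicates 1 to 4. The groups overlapped through Grb2_cKO replicate 1, which lay among the controls, and the other 3 Grb2_cKO embryos were above all controls. The mean was 11.00 ± 0.05 against 11.26 ± 0.18, a difference of 0.26 (SE 0.09, 95% interval 0.05 to 0.46) that was not called. Without Grb2_cKO replicate 1 the difference of Cdh6 was 0.34 and was called, and it was also called after quantile normalization, at 0.32. At an unchanged 0.26 it was called without the dimmest 25% of genes and with a trended and robust spread.

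Cdh11 encodes a type II cadherin of mesenchyme and stroma. Its control values were 12.64, 12.59, 12.58 and 12.57 and its Grb2_cKO values 12.62, 12.77, 12.57 and 12.51. The groups overlapped almost fully, with Grb2_cKO replicate 2 highest of all and Grb2_cKO replicate 4 lowest. The difference was 0.02 (SE 0.07, 95% interval -0.14 to 0.18), and -0.03 without Grb2_cKO replicate 2. Markers of stroma were set beside Cdh11. Of 5 measured, 4 rose, and their mean level was between 10.2 and 10.3 in controls and between 10.8 and 11.0 in Grb2_cKO. With the Y-linked covariate 3 passed. Beside these and all later marker counts stand the shares over all genes. They were 13.7% called higher and 14.3% called lower, and 5.62% called in either direction with the covariate.

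Cdh2 encodes N-cadherin, which is found in mesenchyme, in the proximal nephron and in nerve. Cdh2 read 10.82, 10.88, 10.71 and 10.88 in control replicates 1 to 4 and 11.16, 11.30, 11.04 and 11.22 in Grb2_cKO replicates 1 to 4. All Grb2_cKO embryos were above all controls. The mean went from 10.82 ± 0.08 to 11.18 ± 0.11, a difference of 0.36 (SE 0.08), or 128% of control (95% interval 114% to 145%). The gene's other probe set gave 0.28 (SE 0.08). With the Y-linked mean as covariate the difference was 0.47 (SE 0.12) and was no longer called, and against control replicate 3 alone it was 0.47 (SE 0.13).

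Cdh4 encodes R-cadherin, a type I cadherin of the early nephron that can pair with N-cadherin. Cdh4 read 9.08, 9.10, 9.30 and 9.28 in control replicates 1 to 4 and 8.45, 8.57, 8.72 and 8.72 in Grb2_cKO replicates 1 to 4. Every Grb2_cKO embryo was below every control. The mean was 9.19 ± 0.11 in controls and 8.61 ± 0.13 in Grb2_cKO, a difference of -0.57 (SE 0.09), or 67.2% of control (95% interval 58.6% to 77.0%). It was -0.69 (SE 0.14) with the Y-linked mean as covariate, where it was still called, and -0.68 (SE 0.14) against control replicate 3 alone, where it was not. The other probe set of Cdh4 differed by -0.13 (SE 0.11) and was not called, so the 2 probe sets disagree on the size.

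Markers of the early nephron moved in the direction of Cdh4. All 6 measured, among them Lhx1, Wnt4 and Jag1, fell. Their mean level was between 10.03 and 10.21 in controls and between 9.43 and 9.57 in Grb2_cKO. Cdh6, also a cadherin of early nephron epithelium, differed in the other direction, by 0.26, and was not called. Of 6 nephron progenitor markers 4 fell, and of 6 proximal tubule markers 2 rose. With the Y-linked covariate 1 marker passed in each of these 3 lists. In bulk tissue, fewer cells of a type and less RNA per cell cannot be told apart, and the part of cell numbers in the differences of Cdh4 and the other cadherins was not tested.

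Among the cadherins of epithelial tubes, Cdh3 had non-overlapping groups and Cdh1 and Cdh16 did not. Cdh1 encodes E-cadherin, the cadherin of ureteric bud and distal nephron epithelium. Its values were 10.40, 10.48, 10.53 and 10.45 in controls and 10.28, 9.94, 10.53 and 10.42 in Grb2_cKO. Grb2_cKO replicate 2 was lowest, replicate 1 was also below all controls, and replicates 3 and 4 lay among them. The mean was 10.47 ± 0.06 against 10.30 ± 0.26, a difference of -0.17 (SE 0.12, 95% interval -0.43 to 0.09) that was not called. A second probe set of Cdh1 read 6.65, 6.90, 6.69 and 6.7 in controls and 6.39, 6.23, 6.45 and 6.14 in Grb2_cKO. On it the groups did not overlap, and the difference of -0.43 (SE 0.09) was called. The mean of both probe sets gave -0.30 (SE 0.09), which was also called, so whether Cdh1 passes depends on the probe set.

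Cdh16 encodes Ksp-cadherin, a cadherin largely restricted to kidney tubules. Cdh16 read 10.13, 10.24, 10.22 and 10.15 in control replicates 1 to 4 and 10.15, 9.74, 10.19 and 10.07 in Grb2_cKO replicates 1 to 4. Grb2_cKO replicate 2 was lowest, as for Cdh1, replicate 4 was also below all controls, and replicates 1 and 3 lay among them. The difference was -0.15 (SE 0.10, 95% interval -0.37 to 0.08), and -0.05 without that embryo, as it was for Cdh1.

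Cdh3 encodes P-cadherin, which is found with E-cadherin in many epithelia. Its control values were 10.18, 10.13, 10.20 and 10.44 and its Grb2_cKO values 9.74, 9.80, 9.89 and 10.05. All Grb2_cKO embryos were below all controls. The mean was 10.24 ± 0.14 against 9.87 ± 0.13, a difference of -0.37 (SE 0.09), or 77.5% of control (95% interval 67.0% to 89.6%). With the Y-linked mean as covariate it was -0.34 (SE 0.16) and was not called.

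Ureteric epithelium markers moved in the same samples. Of 13 measured, 9 fell and 1 rose, and their mean level was between 8.72 and 8.87 in controls and between 7.91 and 8.21 in Grb2_cKO. With the Y-linked covariate 4 passed, all lower. Their median difference was -0.41, and that of Cdh1 was -0.17 on the probe set used and -0.43 on the other. No test of the difference between Cdh1 and this list was made.

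Cdh13 encodes T-cadherin, which lacks a tail and is known from vessel walls and as a receptor of adiponectin. Cdh13 read 6.87, 6.81, 7.19 and 7.17 in control replicates 1 to 4 and 7.47, 7.44, 7.49 and 8.0 in Grb2_cKO replicates 1 to 4. All Grb2_cKO embryos were above all controls, with Grb2_cKO replicate 4 far above the rest. The mean was 7.01 ± 0.20 against 7.60 ± 0.27, a difference of 0.59 (SE 0.14), or 151% of control (95% interval 121% to 188%). Without Grb2_cKO replicate 4 or another embryo the difference stayed between 0.46 and 0.65 and was called. With the Y-linked mean as covariate it was 0.40 (SE 0.23) and was not called, and control replicate 3, at 7.19, was the highest control.

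Endothelial markers moved in the direction of Cdh13. Of 6 measured, 4 rose, and their mean level was between 9.90 and 9.95 in controls and between 10.2 and 10.4 in Grb2_cKO. With the Y-linked covariate limma called 0 of them, and 3 had an unadjusted p under 0.05. VE-cadherin, the endothelial cadherin encoded by Cdh5, rose by 0.28 (SE 0.07, adjusted p = 0.011), and this was 0.29 with the covariate (adjusted p = 0.19). The part of endothelium in the Cdh13 result was not tested.

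Cdh17 encodes LI-cadherin, known from intestine and liver. Its control values were 5.58, 5.51, 5.63 and 5.26 and its Grb2_cKO values 5.58, 5.67, 5.64 and 5.44. The groups overlapped, and the lowest value of each group was in replicate 4. The difference was 0.09 (SE 0.09, 95% interval -0.12 to 0.30), and -0.05 with the Y-linked mean as covariate and against control replicate 3 alone. Of 4 intestine markers 1 rose, and the intestinal factors Cdx1 and Cdx2, which are known to drive Cdh17, were not called, at -0.10 and -0.09. With the Y-linked covariate limma called 0 of the 4, and 1 had an unadjusted p under 0.05.

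**Figure D2:**
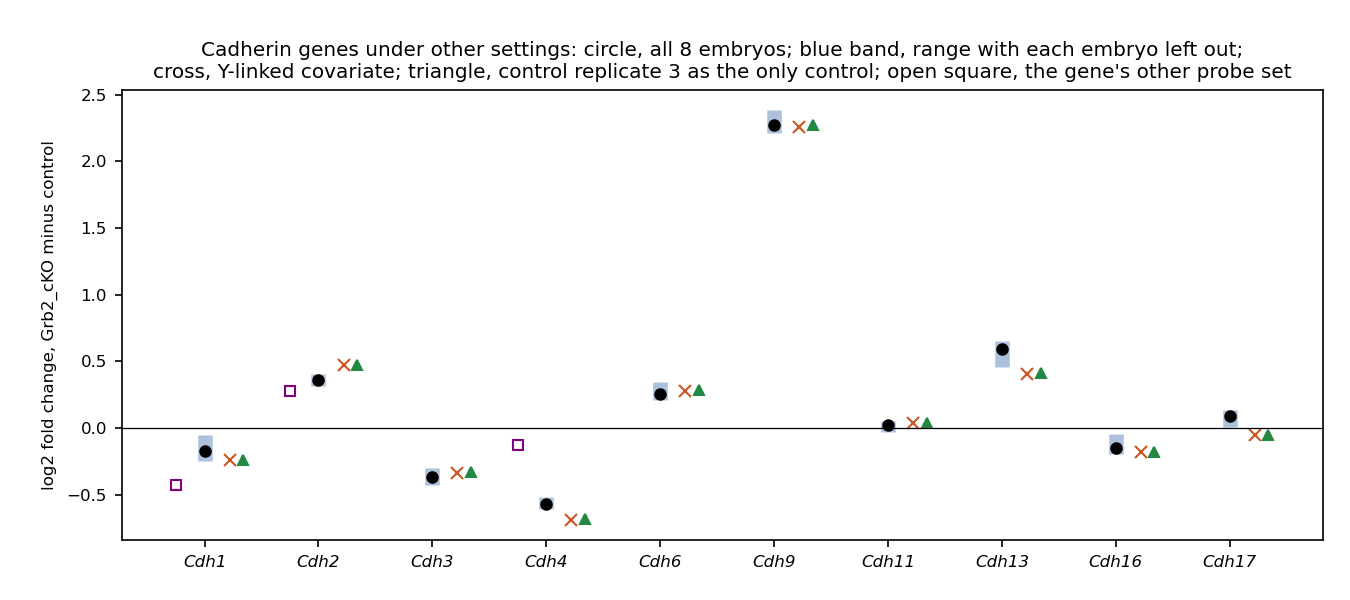
Log2 difference, Grb2_cKO minus control, of each of the 10 cadherin genes: circles for all 8 embryos, bands for the range with each embryo left out, crosses for the Y-linked covariate, triangles for control replicate 3 as the only control and squares for a gene's other probe set. Cdh9 lies between 2.26 and 2.28 with all 8 embryos, with the covariate and against control replicate 3, Cdh13 falls from 0.59 to 0.40 and 0.41, and Cdh17 changes sign. Cdh17 was below the array medians in every embryo. Crosses and triangles both rest on control replicate 3 and are not separate checks.

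Genes whose pattern over the 8 arrays was most like that of a cadherin were named by the root mean square difference after each gene was centred on its own mean. For Cdh9 these were Mir100 at 0.201, Mir453 at 0.261, Creb5 at 0.267, Col6a6 at 0.277 and Parm1 at 0.280. The differences of these 5 between the groups were from 1.88 to 2.26, near that of Cdh9 because they were picked for likeness to it. For Cdh1 they were Id4 at 0.0591, Cldn5 at 0.0611, Me3 at 0.0689, Cdh16 at 0.0694 and Irx3 at 0.0702. Cdh16 was thus the 4th closest to Cdh1 among genes other than predicted genes and clones. For Cdh6 they were Rapsn at 0.0443, Hspg2 at 0.0478, Myo1g at 0.0489, Sipa1l3 at 0.0499 and Egfl8 at 0.0533. A small distance is easier to reach for a gene that varies little, so distances of different cadherins are not compared.

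The rest of the cadherin family was examined next, as a list of 19 genes. Of these, 7 rose, 3 fell and 9 did not pass the test, beside 13.7% of all genes called higher and 14.3% called lower. The median difference was 0.13, beside 0.01 over all genes. With the Y-linked covariate 3 passed, beside 5.62% of all genes. Those 3 are the type II genes Cdh8, Cdh10 and Cdh12. Cdh8, a cadherin of neuronal circuits, read 6.39, 6.36, 6.78 and 6.59 in controls and 8.18, 8.0, 7.97 and 8.78 in Grb2_cKO. The groups lay 1.19 apart, and Cdh8 rose by 1.71 (SE 0.18, adjusted p = 0.00018), or 3.26-fold, and by 1.44 with the covariate (adjusted p = 0.024). Cdh10, a close relative of Cdh9, read 6.73, 6.76, 6.50 and 6.43 in controls and 8.20, 7.84, 7.84 and 8.58 in Grb2_cKO. Cdh10 rose by 1.51 (SE 0.16, adjusted p = 0.00022), or 2.85-fold, and by 1.61 with the covariate (adjusted p = 0.017). Cdh12 rose by 0.50 (SE 0.08, adjusted p = 0.0017). It was dim, between 5.32 and 5.62 in controls and between 5.89 and 6.05 in Grb2_cKO, with medians of arrays between 6.61 and 6.72. The filter that drops the dimmest 25% of genes left Cdh12 out. Cdh18 read between 5.89 and 6.30 in controls and between 6.49 and 7.19 in Grb2_cKO. It rose by 0.75 (SE 0.16, adjusted p = 0.0055) and did not pass with the covariate, at 0.71 (adjusted p = 0.16).

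**Figure D3:**
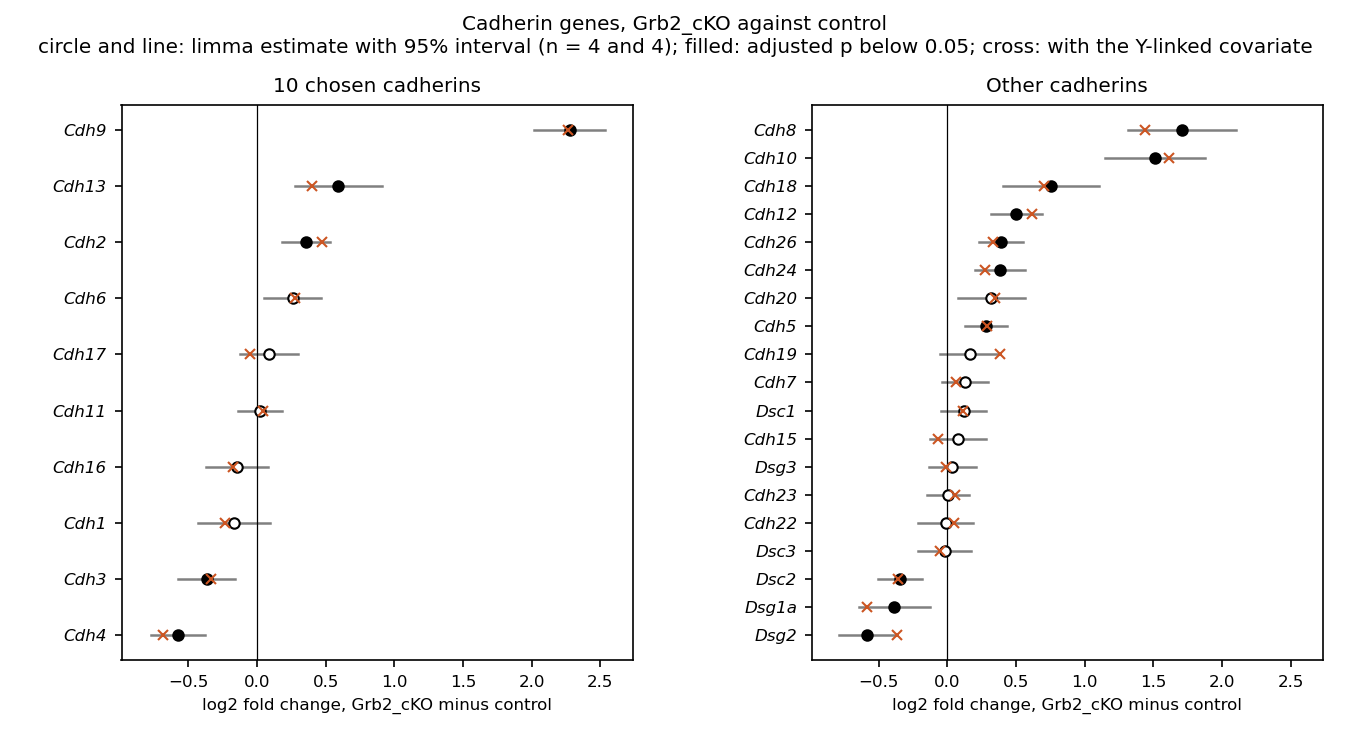
Log2 difference, Grb2_cKO minus control, of the 10 cadherins described and of the 19 others, each point a gene with its 95% interval from limma over 4 and 4 embryos, filled where the adjusted p is below 0.05. Cdh9 at 2.28, Cdh8 at 1.71 and Cdh10 at 1.51 stand highest, and Dsg2 at -0.58 and Cdh4 at -0.57 lowest.

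The desmosomal cadherins, which fasten epithelial cells to keratin filaments, are 6 of those 19. Dsg2, the desmoglein of simple epithelia, read 7.36, 7.23, 6.97 and 7.16 in controls and 6.57, 6.50, 6.61 and 6.73 in Grb2_cKO. The groups did not overlap, and Dsg2 fell by 0.58 on the log2 scale (SE 0.09, adjusted p = 0.0013), a difference that was -0.37 with the covariate (adjusted p = 0.13). The mean of the probe sets of Dsg2 gave -0.27 (SE 0.06), also called, so its size depends on the probe set. Dsc2 and Dsg1a, chosen after their values were seen, differed by -0.35 (adjusted p = 0.0051) and -0.39 (adjusted p = 0.032), and the call of Dsg1a was lost without control replicate 1 or 3 or Grb2_cKO replicate 2 or 3. The other 3 desmosomal genes did not pass. Of the 13 cadherins outside the desmosome, 7 rose and 0 fell in limma, beside 13.7% of all genes called higher and 14.3% called lower. At an unadjusted p under 0.05 these were 8 and 0, beside 4254 and 4175 of all 22180 genes. This split was made after the values were seen. Cdh15, the muscle cadherin, chosen after its values were seen, differed by 0.07 and did not pass, and was at -0.07 with the covariate. Of 4 skeletal muscle markers 2 rose, and with the covariate limma called 0, with 2 at an unadjusted p under 0.05.

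The neuronal cadherins were set beside nerve markers. Of 5 measured, Stmn2 rose by 2.48, Elavl4 fell by 0.93 on the log2 scale, and Tubb3 at 0.20, Th at 0.22 and Sox10 of neural crest at -0.02 did not pass. Their mean level was between 6.52 and 6.88 in controls and between 6.99 and 7.29 in Grb2_cKO, with Stmn2 the single marker called higher. The part of nerve in the results for Cdh8, Cdh9 and Cdh10 was not tested.

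Cdh6, Cdh9, Cdh10, Cdh12 and Cdh18 follow each other on chromosome 15 with a single other measured protein-coding gene, Acot10, between them. This run was looked at after the values were seen. In the order of the chromosome their differences were 0.26, 2.28, 1.51, 0.50 and 0.75, and Acot10 was at 0.04. Genes not annotated as protein-coding were left out of this order. Of the 16 measured protein-coding genes nearest to the run, 8 on each side, 2 were higher (Npr3 at 0.59 and Fbxl7 at 0.75). Another 2 were lower (Myo10 at -0.60 and Zfp622 at -0.62), and 12 were not called. In this order the genes next to the run, Drosha on the side of Cdh6 and Hnrnpa1l2-ps2 on the side of Cdh18, were not called. Probes of related cadherins can pick up each other's RNA, and the part of this in the run was not tested.

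**Figure D4:**
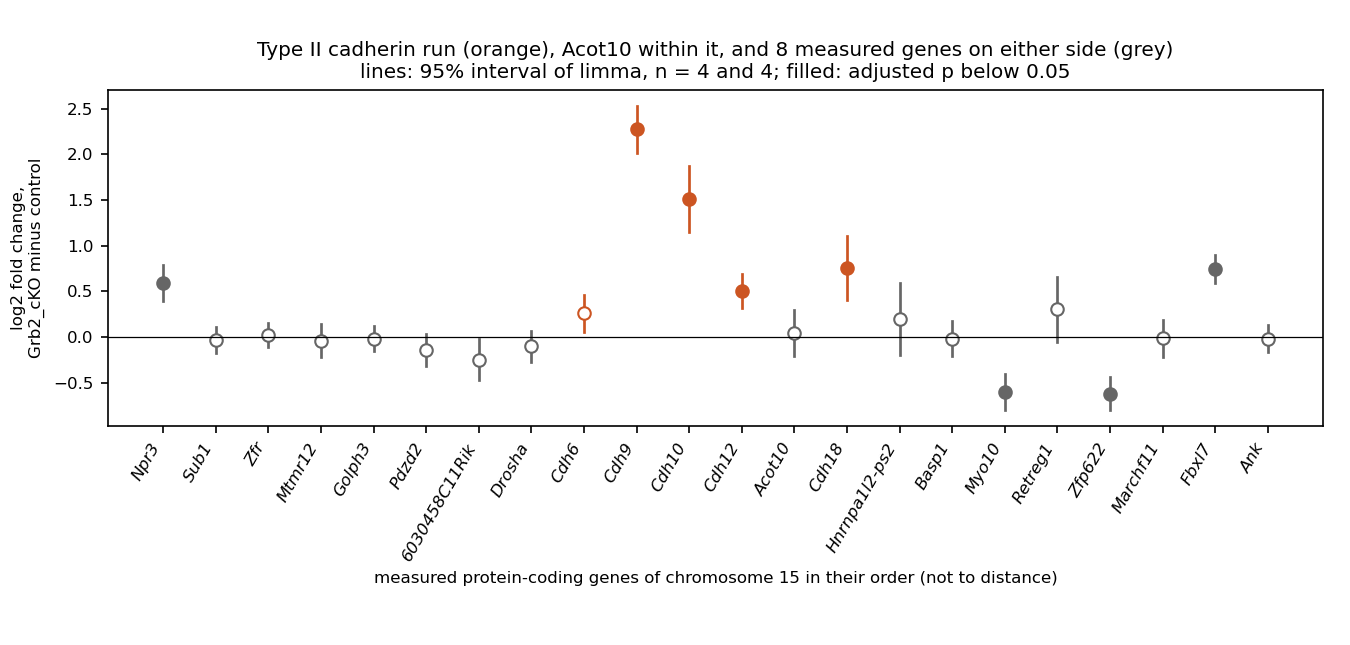
Log2 difference, Grb2_cKO minus control, of the measured protein-coding genes along a stretch of chromosome 15, in their order, not to distance. Lines are 95% intervals from limma over 4 and 4 embryos. The 5 type II cadherins lie between 0.26 and 2.28, with Cdh9 highest, and the 16 neighbours between -0.62 and 0.75.

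Cadherin tails work through catenins, and of 20 catenins and junction partners 19 were measured. Of these, 3 rose, 6 fell and 10 did not pass, with a median of -0.04. Over all genes 13.7% were called higher and 14.3% lower, and 5.62% in either direction with the covariate. With the Y-linked covariate limma called 0, and 3 had an unadjusted p under 0.05, all lower. The count was 5 in place of 9 without control replicate 1, without control replicate 2 or without Grb2_cKO replicate 3. Ctnnd2, a p120-like catenin, read 8.29, 8.31, 8.47 and 8.91 in controls and 7.51, 7.46, 7.24 and 7.73 in Grb2_cKO. Every Grb2_cKO embryo was below every control, and Ctnnd2 fell by 1.01 on the log2 scale (SE 0.15, adjusted p = 0.00092; with the covariate -0.99, adjusted p = 0.055). Jup, or plakoglobin, which joins both adherens junctions and desmosomes, read 9.30, 9.40, 9.67 and 9.65 in controls and 9.88, 9.89, 10.11 and 10.26 in Grb2_cKO. Jup rose by 0.53 (SE 0.12, adjusted p = 0.0070), in the direction opposite to its desmosomal partner Dsg2.

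Nectin3, a calcium-independent adhesion molecule beside the cadherins, fell by 0.46 on the log2 scale (SE 0.09, adjusted p = 0.0033). Plekha7, which ties p120-catenin to microtubules, fell by 0.36 (SE 0.08, adjusted p = 0.0062). The core catenins, chosen after their values were seen, had smaller differences. Ctnnb1, or beta-catenin, read 12.52, 12.56, 12.48 and 12.40 in controls and 12.32, 12.29, 12.27 and 12.24 in Grb2_cKO. The groups did not overlap, and the difference of -0.21 (SE 0.06, adjusted p = 0.034) lost its call without any 1 of 6 embryos, all but control replicate 4 and Grb2_cKO replicate 1. Ctnna1, or alpha-catenin, differed by -0.26 (SE 0.08, adjusted p = 0.032), and its call was lost without any 1 of 5 embryos. Ctnnd1, or p120-catenin, was at -0.11 (SE 0.06) and did not pass.

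**Figure D5:**
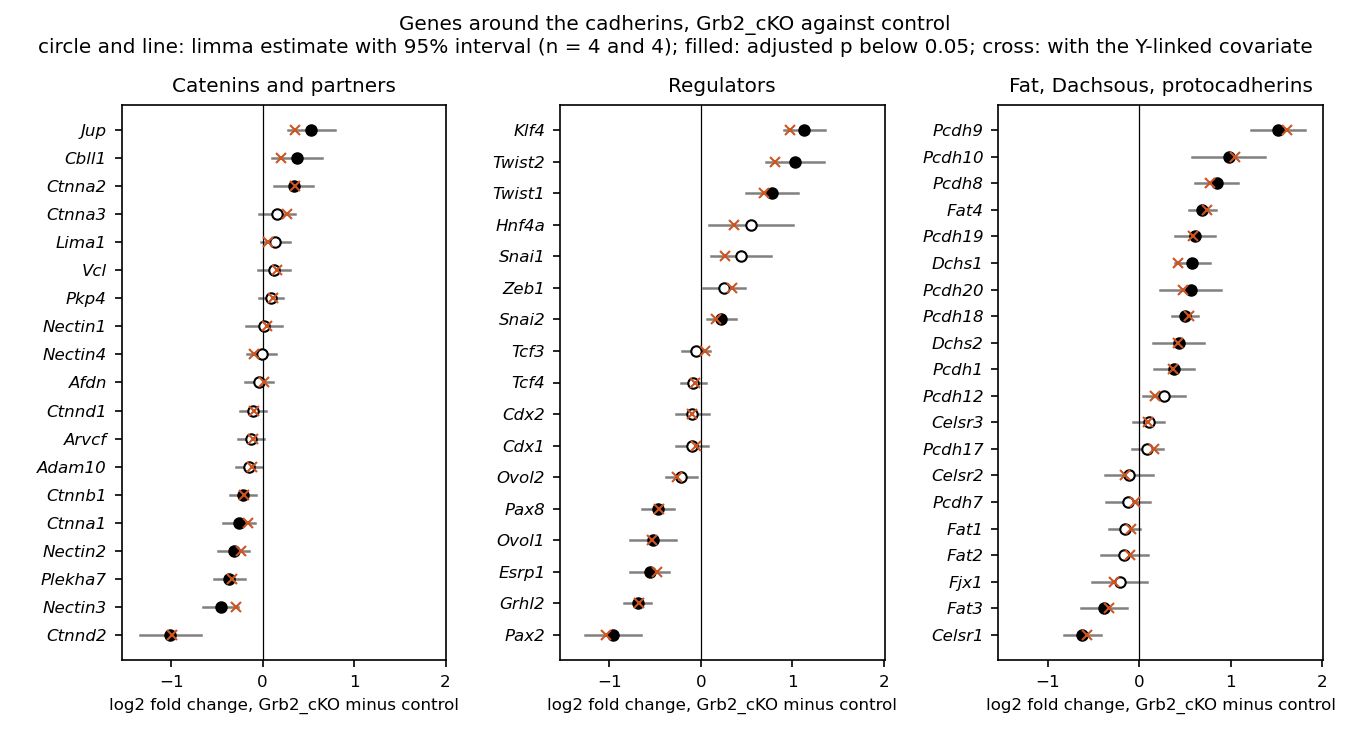
Log2 difference, Grb2_cKO minus control, of the catenins and junction partners, the regulators, and the Fat, Dachsous and protocadherin genes, each point a gene with its 95% interval from limma over 4 and 4 embryos, filled where the adjusted p is below 0.05. Pcdh9 at 1.51 is the highest and Ctnnd2 at -1.01 the lowest.

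Regulators known to act on cadherin genes or on epithelial state were the next list, with 17 of 20 measured. Of these, 4 rose, 5 fell and 8 did not pass, with a median of -0.08, beside 13.7% of all genes called higher and 14.3% called lower. Klf4, Grhl2 and Pax2 passed with the covariate, beside 5.62% of all genes. Grhl2, an activator of Cdh1 in epithelia, read 7.74, 7.77, 7.67 and 7.58 in controls and 6.99, 6.99, 7.01 and 7.0 in Grb2_cKO. The Grb2_cKO values lay 0.57 below the lowest control, and Grhl2 fell by 0.69 on the log2 scale (SE 0.07, adjusted p = 0.00012). Klf4, another factor that can activate Cdh1, read 7.55, 7.55, 7.88 and 7.91 in controls and 8.93, 8.88, 8.74 and 8.87 in Grb2_cKO. It rose by 1.13 (SE 0.10, adjusted p = 9.9e-05), opposite in direction to Grhl2.

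Pax2, a factor of bud and nephron lineages, fell by 0.96 on the log2 scale (SE 0.14, adjusted p = 0.00078). The epithelial splicing factor Esrp1 fell by 0.56 (SE 0.10, adjusted p = 0.0019) and the epithelial factor Ovol1 by 0.52 (SE 0.11, adjusted p = 0.0066). Among repressors of Cdh1, Twist2 rose by 1.03 (SE 0.14, adjusted p = 0.00064) and Twist1 by 0.77 (SE 0.13, adjusted p = 0.0017). Both Twist genes are also known from mesenchyme, and their values with the covariate were 0.81 (adjusted p = 0.066) and 0.69 (adjusted p = 0.099). Snai2, chosen after its values were seen, was at 0.22 (adjusted p = 0.036) and lost its call without any 1 of 6 embryos. Snai1 at 0.44 and Zeb1 at 0.25, chosen in the same way, did not pass.

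The wider superfamily, of 20 Fat, Dachsous, flamingo-type and protocadherin genes with the Fat and Dachsous modifier Fjx1, had 10 genes that rose, 2 that fell and 8 that did not pass, with a median of 0.32. Over all genes 13.7% were called higher and 14.3% lower. With the covariate 4 of the superfamily passed, all higher, beside 5.62% of all genes called in either direction. Fat4, a giant cadherin of kidney stroma, read 11.21, 11.15, 11.11 and 11.18 in controls and 11.79, 11.97, 11.82 and 11.83 in Grb2_cKO. All Grb2_cKO embryos were at least 0.58 above the controls, and Fat4 rose by 0.69 (SE 0.07, adjusted p = 0.00014; with the covariate 0.74, adjusted p = 0.014). Its ligand Dchs1 rose by 0.58 (SE 0.09, adjusted p = 0.00092; with the covariate 0.42, adjusted p = 0.094). Celsr1, a cadherin of planar polarity in epithelia, fell by 0.62 (SE 0.09, adjusted p = 0.00084).

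Pcdh9, a protocadherin of neurons and other cells, read 7.68, 7.35, 7.31 and 7.30 in controls and 8.88, 8.68, 8.87 and 9.26 in Grb2_cKO. The groups did not overlap, and Pcdh9 rose by 1.51 (SE 0.13, adjusted p = 8.5e-05), or 2.85-fold. The protocadherins were not planned as a set of their own. Of these 10, 7 rose and 0 fell in limma, beside 13.7% of all genes called higher and 14.3% called lower. At an unadjusted p under 0.05, 4254 of all 22180 genes were higher and 4175 lower, and of the protocadherins 8 and 0. Among them Pcdh10 rose by 0.98 (SE 0.18, adjusted p = 0.0029), Pcdh8 by 0.84 (SE 0.10, adjusted p = 0.00039), Pcdh19 by 0.61 (SE 0.10, adjusted p = 0.0015) and Pcdh18 by 0.50 (SE 0.06, adjusted p = 0.00050). With the covariate Pcdh8, Pcdh9 and Pcdh18 passed, and Pcdh10 and Pcdh19 did not. The rise of stromal markers given with Cdh11 stands beside these results too, and its part in them was not tested.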

How the data were processed

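Each of the 8 arrays held both kidneys of an embryo, with 200 ng of total RNA amplified and labelled with biotin, per the labels' protocols. The values are log2 probe-set levels that the authors deposited after processing them in the Transcriptome Analysis Console, per the submitters' processing notes. No source used here gives the background correction or normalization. That they are on a log2 scale follows from their range (1.25 to 14.08, medians of arrays between 6.61 and 6.72). Replicate numbers follow the order of the records and pair nothing. No 2 arrays held identical values. No detection calls or batch records were used here, so a dim gene cannot be told from background.

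The annotation used gave 1 gene symbol to 23521 of 41345 probe sets, several to 1814 and none to 16010. Symbols were updated through the Entrez identifier to the GRCm38.p6 RefSeq table for 23328. The probe set with the highest mean over the 8 arrays stood for each of 22180 genes.

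Groups were compared in limma 3.58.1 (R 4.3.3) with lmFit and eBayes, with Benjamini-Hochberg adjustment across all genes and a threshold of 0.05. The fit was tested on simulated data. The cadherins and all lists were chosen with earlier results of these data known. Of 89 genes on the lists other than cell type markers, 85 were measured and the rest not analysed here. Named genes were the 10 cadherins, Grb2, Cdh5, per other list the 4 genes of smallest p and every further called gene past 0.5 log2, up to 8, and the 5 genes most like Cdh9, Cdh1 and Cdh6. Predicted genes and clones were left out of the last. Any other gene is a marker or neighbour, or is said to be chosen after seeing its values.

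Alternatives were array medians or quantiles for normalization, a filter that drops the dimmest 25% of genes, a gene's other probe set or the mean over its probe sets, array weights, a robust and trended spread, the Y-linked mean as covariate, an adjusted p of 0.01, control replicate 3 as the only control for the 10 cadherins, and leaving out each embryo in turn.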

Additional observations from a re-analysis of the deposited data

Results flagged for a closer look

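In each group of 4 embryos, the highest and lowest value of 50 named genes was compared with the range of the group, 100 groups in all. An embryo stood apart in 4 of them, and chance sets apart about 1 in 20 groups. Cdh13 read 8.0 in Grb2_cKO replicate 4, above 7.44 to 7.49 in the other 3. Plekha7 read 7.29 in Grb2_cKO replicate 3, above 7.07 to 7.10. Pcdh9 read 7.68 in control replicate 1, above 7.30 to 7.35. Hspg2, one of the genes most like Cdh6, read 10.8 in Grb2_cKO replicate 1, below 11.09 to 11.13 in the other 3.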

How the results depend on the processing

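No paired analysis was possible because the labels give no replicate numbers. The Y-linked mean as covariate moved the counts most. The count of all genes went from 6227 to 1246, of the 10 cadherins from 5 to 2, of the other cadherins from 10 to 3, of catenins and partners from 9 to 0, of regulators from 9 to 3, and of Fat, Dachsous and protocadherin genes from 12 to 4. At an adjusted p of 0.01 the counts were 3809 genes in all, 3 of the 10 cadherins and 4 catenins and partners. With each embryo left out in turn, the counts ran from 4894 to 5955 for all genes, 5 to 6 for the 10 cadherins, 9 to 10 for other cadherins, 5 to 9 for catenins and partners, 8 to 11 for regulators and 10 to 12 for the wider superfamily. Among the 50 named genes, signs turned for Cdh17, at -0.0497 with the covariate and -0.0504 against control replicate 3 alone, and for Cdh11, which ran from -0.0308 without Grb2_cKO replicate 2 to 0.0549 without Grb2_cKO replicate 4. Of the same 50, the covariate left 26 on the same side of the threshold with the same sign, quantile normalization 47, centring 48, the mean of probe sets 48, the trended and robust spread 48 and array weights 50. Dropping the dimmest 25% of genes left 47 to compare, of which 45 kept both. For the cadherins of the 10 that lost their call with the covariate, the standard error was wider too. Cdh2 went from 0.36 (SE 0.08) to 0.47 (SE 0.12). Cdh3 went from -0.37 (SE 0.09) to -0.34 (SE 0.16), and Cdh13 from 0.59 (SE 0.14) to 0.40 (SE 0.23). A lost call is thus not by itself a smaller difference. The cause of these shifts was not tested. With 4 embryos a group and 1 control with high Y-linked values, sex and genotype are separated by that control alone.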

Other observations

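Markers of cell types not set beside a cadherin also differed between the groups. Of 6 macrophage markers 5 rose in limma, with a mean level between 7.63 and 7.81 in controls and between 8.67 and 9.01 in Grb2_cKO, and 4 passed with the Y-linked covariate. All 3 measured podocyte markers and all 3 measured erythroid markers rose. With the covariate 1 of the erythroid markers passed, and limma called 0 of the podocyte markers, 2 of which had an unadjusted p under 0.05. Of 5 loop and distal tubule markers 1 rose and 1 fell, and with the covariate limma called 0, with 1 at an unadjusted p under 0.05. Of 5 gonad and adrenal markers 0 were called in limma, and 0 had an unadjusted p under 0.05.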
